A study of Mus musculus with 8 samples.

Results

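The genes described here are the paired immune receptors of the Siglec, CD300, leukocyte immunoglobulin-like (Lilr and Pir), SIRP, TREM and LAIR families, together with Tyrobp and Hcst, the adaptor proteins that many of the activating receptors need for signalling. Members were chosen by gene symbol, from probe sets that list a single symbol: those whose symbol begins with Siglec, Cd300, Lilr, Pira, Pirb, Sirp, Trem or Lair, plus Cd33, Tyrobp and Hcst, with 1 gene of the TREM group left out by the rule. This gave 29 of 19938 measured genes. Another 8 probe sets that list several symbols of these families were left out.

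The study measured gene expression on Affymetrix mogene 1.0 ST arrays, whose probe sets each combine many short probes that cover a transcript. Flow cytometry was used to sort myeloid dendritic cells from marrow of femur and tibia, and classical dendritic cells from the spleen, of the same 4 mice, which gave 4 arrays per tissue and 8 in all. All mice were 8 weeks old, untreated as far as the labels say, and CX3CR1-gfp/+, meaning that they carry a green fluorescent protein reporter in 1 copy of the gene of the fractalkine receptor. Cells of a single mouse make up each sample, the source label of the bone marrow samples reads only myeloid cells, and no source used here names the surface markers used for sorting.

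Paired receptors come in inhibitory and activating forms that often share a family, a gene cluster and a similar outer domain. Inhibitory members carry a tyrosine motif (ITIM) in the cytoplasmic tail, which recruits phosphatases such as those encoded by Ptpn6 and Inpp5d. Activating members have short tails and a charged residue in the membrane, through which they pair with an adaptor such as the products of Tyrobp, Hcst or Fcer1g, whose tyrosine motifs call in kinases such as Syk. On dendritic cells, monocytes and macrophages these receptors read sialic acid, phospholipids, MHC class I, collagen and the CD47 protein. By textbook knowledge 9 members were counted as inhibitory, 13 as activating and 2 as adaptors. The other 5, Siglec1, Cd33, Lilr4b, Cd300lg and Treml2, were put in neither class, since they lack a canonical ITIM in the mouse and their adaptor use is absent or less settled.

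Of the 29 members, 17 were higher and 4 lower in bone marrow at an adjusted p below 0.05 in limma, a count of 21 called (72.4%) against 18.5% of all genes. Counted by direction, 9.26% of all genes were higher and 9.20% lower. The members ranged from percentile 41.1 of mean intensity upward, with a median percentile of 82.2. Among the 11735 genes at least as bright as the dimmest member 28.0% were called. All 4 bone marrow arrays lay above or all 4 below the 4 spleen arrays in 21 members, which holds for 20.6% of all genes. The median log2 fold change, bone marrow minus spleen, was 0.50 over the members and -0.01 over all genes. A difference of at least 2-fold was called in 12 members and in 3.52% of all genes. Fewer cells of a type and less RNA per cell cannot be told apart in such bulk samples.

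**Figure D1:**
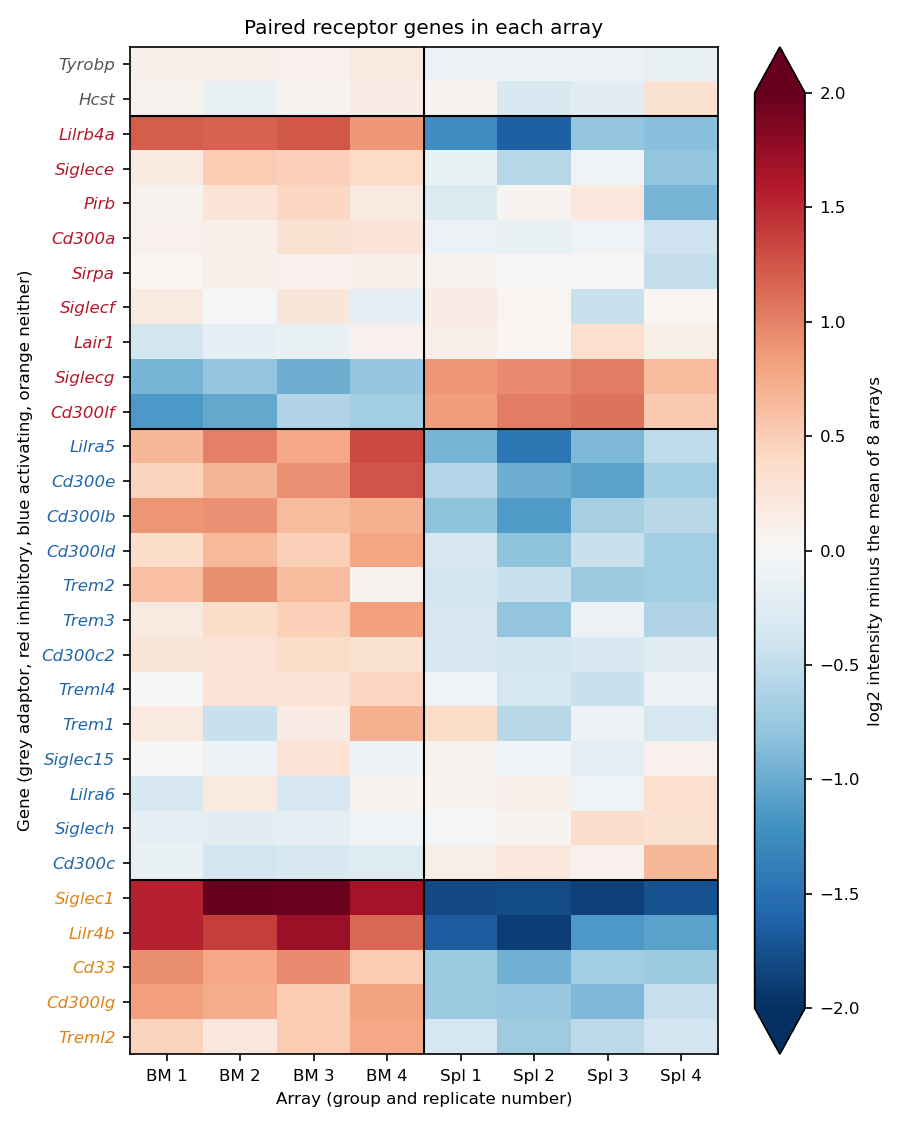
Log2 intensity of each member (rows) in each of the 8 arrays (columns), minus the mean of that gene over the 8 arrays; colour saturates at 2 in either direction, and name colours give the class. Most activating members are above their mean in all 4 bone marrow arrays. Among the inhibitory members, Lilrb4a, Siglece and Cd300a are higher there, Siglecg and Cd300lf are lower, and 4 were not called.

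Markers of other cells moved between the same groups. All 8 neutrophil markers were higher in bone marrow, where their summed intensity lay between 18823 and 25706, against 1310 to 1605 in spleen. Of 8 macrophage markers 7 were higher, with sums of 21235 to 30547 and 3381 to 4048, and of 5 measured monocyte markers 4 were higher, with sums of 17232 to 19631 and 6130 to 7636. The dendritic cell markers Itgax, H2-Ab1, Cd74, Flt3 and Zbtb46 summed to 34887 to 38140 in bone marrow and 38717 to 41392 in spleen, with 3 of 5 lower in bone marrow. H2-Ab1 and Cd74 made up most of that sum and were not called, while the dendritic growth factor receptor gene Flt3 was 2.07-fold lower, the dendritic transcription factor gene Zbtb46 2.43-fold lower, and Itgax lower by a log2 fold change of -0.40. No marker was at 0 in any array, and background levels were not used here. The part of these other cells in the results below was not tested. Array medians lay between 125 and 135, and correlations between arrays of a tissue across genes between 0.991 and 0.996.

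Tyrobp, the adaptor also known as DAP12, was bright and nearly equal in the 2 tissues. Its intensity was 6124, 6222, 6103 and 6502 in the 4 bone marrow arrays, listed by replicate number here and below, and 5267, 5327, 5313 and 5183 in those of spleen. Every bone marrow array lay above every spleen array, by a small margin (log2 fold change 0.24 ± 0.07 SE, 1.18-fold, 4 arrays per tissue, adjusted p = 0.026 in limma). A fit that blocks on the mouse gave an adjusted p of 0.094 for Tyrobp. Leaving out replicate 2 or 4 of bone marrow, or replicate 1, 2 or 4 of spleen, gave 0.055 to 0.069. The log2 fold change stayed between 0.22 and 0.25 over all of the alternatives run. Hcst, the adaptor also known as DAP10, stood at 388, 336, 386 and 405 in bone marrow and 382, 297, 317 and 455 in spleen. Its groups overlapped (0.08 ± 0.12, adjusted p = 0.81, 95% interval -0.19 to 0.35). Fcer1g, an adaptor gene outside the rule, was 1.52-fold higher in bone marrow, at 9435 against 6191 as geometric means of 4 arrays (0.61 ± 0.09, adjusted p = 3.1e-04).

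The inhibitory members split in both directions. Of 9, 3 were higher (Lilrb4a, Siglece and Cd300a), 2 lower (Cd300lf and Siglecg) and 4 not called, with a median log2 fold change of 0.17 and a range from -1.74 to 2.25. Cd300lf, also known as CLM-1, an ITIM receptor that binds phospholipids of dying cells, had intensities of 480, 521, 697 and 653 in bone marrow and 1900, 2165, 2252 and 1534 in spleen. The lowest spleen array stood above the highest bone marrow array by a wide margin (-1.74 ± 0.14 SE, 3.34-fold lower, 4 arrays per tissue, adjusted p = 1.5e-06 in limma). Siglecg, a sialic acid receptor best known for damping B cell receptor signalling, stood at 339, 375, 326 and 375 in bone marrow and 1169, 1236, 1312 and 993 in spleen. It was low in each bone marrow array and 3.32-fold lower as a mean (-1.73 ± 0.10, adjusted p = 5.7e-08). Of 4 measured B cell markers 1 was higher and 2 lower in bone marrow, with summed intensities of 863 to 986 there and 971 to 1195 in spleen. Cd79b gave the largest part of these sums and was not called (508 against 480). Ms4a1 (77 against 315) and Cd79a (145 against 205) were the lower markers and Vpreb1 (176 against 76) the higher one. The part of B cells in the Siglecg difference was not tested.

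Lilrb4a, the ITIM receptor once called gp49B, rose in the opposite direction. Its intensity was 3334, 3274, 3409 and 2637 in bone marrow and 609, 467, 838 and 810 in spleen. Replicate 4 was the lowest bone marrow array but still above every spleen array (2.25 ± 0.16 SE, 4.75-fold, 4 arrays per tissue, adjusted p = 6.0e-07 in limma). Siglece, a sialic acid receptor of neutrophils, monocytes and dendritic cells, ranged from 628 to 793 in bone marrow and from 325 to 528 in spleen (0.78 ± 0.15, adjusted p = 0.0018). Cd300a, a receptor of phosphatidylserine, changed less, from 2042 in spleen to 2660 in bone marrow as geometric means (0.38 ± 0.09, adjusted p = 0.011). Its highest spleen array, at 2208, lay below its lowest bone marrow array, at 2475.

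Sirpa, the receptor of the CD47 protein and a marker of the cDC2 subset, gave a strong signal in both tissues. Its intensity was 5916, 6312, 6089 and 6188 in bone marrow and 6039, 5891, 5875 and 4158 in spleen. Spleen replicate 4 was lower than the other 7 arrays, and the groups overlapped (0.17 ± 0.11 SE, 4 arrays per tissue, adjusted p = 0.40 in limma, 95% interval -0.07 to 0.42). Without that array the Sirpa log2 fold change was 0.045. Of the other 3 cDC2 markers, Esam (85 against 434, log2 fold change -2.35) and Cd4 (290 against 1326, -2.20) were lower in bone marrow and Irf4 was not called (-0.09). Of 3 cDC1 markers, Xcr1 (-3.49) and Cd8a (-2.02) were lower and Clec9a was not called (0.11). Pirb, an ITIM receptor of MHC class I, showed the same low array. It stood at 2730, 3157, 3495 and 2970 in bone marrow and 2129, 2714, 3037 and 1376 in spleen (0.47 ± 0.20, adjusted p = 0.13). The Pirb difference passed the threshold when the replicate block was in the fit (adjusted p = 0.043) and without spleen replicate 3 (0.042), whereas without spleen replicate 4 its log2 fold change was 0.24 (adjusted p = 0.27). Lair1, an inhibitory receptor of collagen, stood at 1129, 1271, 1323 and 1537 in bone marrow and 1604, 1502, 1823 and 1575 in spleen. Only the highest bone marrow array reached into the spleen range, and the difference lay just outside the threshold (-0.31 ± 0.10, adjusted p = 0.052). It was called lower with quantile normalization (0.016), an intensity trend (0.044), array weights (0.045), the dimmest genes left out (0.040) or bone marrow replicate 4 left out (0.015). Siglecf, which marks eosinophils and some tissue macrophages, stood at 140 to 185 in bone marrow and 115 to 176 in spleen (0.10 ± 0.13, adjusted p = 0.75, 95% interval -0.19 to 0.39). Of 6 eosinophil and basophil markers 4 were higher, with summed intensities of 876 to 2624 in bone marrow and 408 to 435 in spleen.

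Of the 13 activating members, 8 were higher in bone marrow, 2 lower and 3 not called, with a median log2 fold change of 0.60 and a range from -0.54 to 1.89. With Lilr4b and Cd33 counted as activating, a choice made after the data were seen, 10 of 15 were higher and the median was 0.92. Both genes were called higher and lay above the activating median, so this choice could only raise the count and the median. Counting either gene as inhibitory was not run. Relative to the mean of the 8 arrays, the activating members averaged 0.23 to 0.46 above on the log2 scale in the bone marrow arrays, and the spleen arrays averaged -0.50 to -0.23. The inhibitory members averaged -0.08 to 0.12 in bone marrow and -0.23 to 0.14 in spleen, so the 2 tissues overlapped in this class and not in the other. These class averages are descriptions and carry no test.

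**Figure D2:**
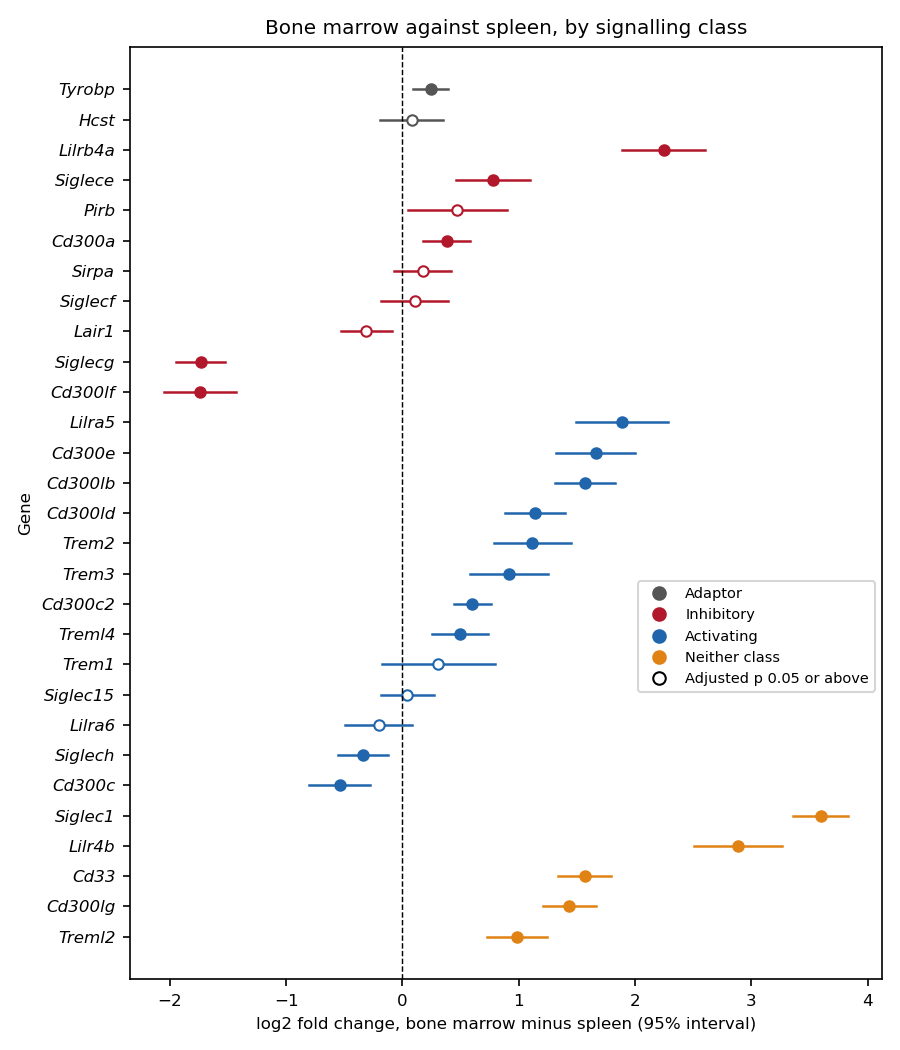
Log2 fold change, bone marrow minus spleen, of the 29 members with the 95% interval of the limma fit (4 arrays per group), coloured by class and ordered by size within a class; open symbols did not pass an adjusted p of 0.05. Inhibitory members run from -1.74 (Cd300lf) to 2.25 (Lilrb4a). Above 0 lie 6 of 9 inhibitory and 10 of 13 activating members.

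Lilra5, an activating Lilr member that signals through the Fc receptor gamma chain, showed the largest rise among the activating members. Its intensity was 444, 559, 477 and 698 in bone marrow and 146, 102, 150 and 196 in spleen. The lowest bone marrow array was above the highest spleen array (1.89 ± 0.18 SE, 3.70-fold, 4 arrays per tissue, adjusted p = 6.7e-06 in limma). Cd300e, which is known from monocytes, stood at 1505, 1746, 2060 and 2602 in bone marrow and 724, 553, 518 and 677 in spleen (1.66 ± 0.16, 3.16-fold, adjusted p = 6.2e-06). Bone marrow arrays of this gene spread more than spleen arrays, with a log2 SD of 0.34 against 0.23. Cd300lb, also known as CLM-7, which couples to the Tyrobp product, stood at 801, 817, 668 and 706 in bone marrow and 248, 198, 273 and 294 in spleen (1.57 ± 0.12, 2.97-fold, adjusted p = 8.6e-07). Cd300ld, which pairs with the Fc receptor gamma chain, stood at 2009, 2424, 2157 and 2669 in bone marrow and 1229, 884, 1133 and 969 in spleen (1.14 ± 0.12, adjusted p = 1.4e-05). In each of these genes the groups were separate. Cd300c2 rose by less, from 3770 to 5722 as geometric means (0.60 ± 0.07, adjusted p = 5.4e-05).

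All 5 TREM members had positive differences and 4 were called. Of all 19938 genes, 9539 had a positive difference and 18.5% were called. Trem2, a lipid and lipoprotein receptor of macrophages that signals through the Tyrobp product, stood at 379, 477, 388 and 262 in bone marrow and 191, 184, 151 and 156 in spleen. Bone marrow replicate 4 was the lowest of its group and still above all spleen arrays (1.12 ± 0.15 SE, 2.17-fold, 4 arrays per tissue, adjusted p = 1.6e-04 in limma). Trem3, a close relative of Trem1, stood at 463, 523, 564 and 717 in bone marrow and 323, 236, 376 and 267 in spleen (0.92 ± 0.15, adjusted p = 7.9e-04). Here replicate 4 was the highest bone marrow array, the reverse of its place in Trem2. Treml4, a receptor that binds dead cells and is known from splenic myeloid cells, ranged from 3642 to 4870 in bone marrow and from 2656 to 3431 in spleen (0.50 ± 0.11, adjusted p = 0.0061). Treml2, which lacks adaptor coupling by most accounts, stood at 388, 330, 402 and 486 in bone marrow and 223, 173, 196 and 216 in spleen (0.99 ± 0.12, adjusted p = 5.3e-05). Trem1, an amplifier of neutrophil and monocyte responses, gave little signal, at 125, 80.0, 122 and 179 in bone marrow and 141, 74.7, 101.4 and 86.4 in spleen. Its groups overlapped and its spread between arrays was among the widest of the members (0.31 ± 0.22, adjusted p = 0.47, 95% interval -0.18 to 0.80), while all 8 neutrophil markers had higher levels in those bone marrow samples.

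Siglech and Cd300c were the activating members that were lower in bone marrow. Siglech, a Tyrobp-coupled receptor that marks plasmacytoid dendritic cells, was dim, at 171, 165, 170 and 186 in bone marrow and 188, 203, 248 and 241 in spleen. The 2 groups were separated by a narrow gap (-0.34 ± 0.10 SE, 4 arrays per tissue, adjusted p = 0.028 in limma), and 5 of the 8 fits that each leave out an array lost the call (replicates 1, 2 and 3 of bone marrow, 3 and 4 of spleen; adjusted p between 0.065 and 0.081). Plasmacytoid markers other than Siglech were 1 higher and 2 lower of 5 measured, with summed intensities of 3309 to 4414 in bone marrow and 2769 to 3289 in spleen, and their part was not tested. Most of that sum was Bst2, the higher gene, at 2536 against 1478, while Ccr9 (84 against 231) and Spib (133 against 335) were the lower ones. Cd300c ranged from 558 to 666 in bone marrow and from 776 to 1149 in spleen (-0.54 ± 0.12, adjusted p = 0.0060). Siglec15, a Tyrobp-coupled receptor of osteoclasts, stood at 212 to 283 in bone marrow and 202 to 246 in spleen (0.04 ± 0.10, adjusted p = 0.89, 95% interval -0.19 to 0.27). Of 4 osteoclast markers 1 was higher and 1 lower. Lilra6, which pairs with the Fc receptor gamma chain, stood at 261 to 380 and 313 to 420 (-0.20 ± 0.13, adjusted p = 0.39, 95% interval -0.49 to 0.08).

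All 5 members placed in neither class were higher in bone marrow. Siglec1, or sialoadhesin, a macrophage receptor that binds sialylated cells and particles and has no ITIM, showed the largest difference of all 29 members. Its intensity was 1324, 1860, 1772 and 1434 in bone marrow and 130, 132, 125 and 136 in spleen. The 4 spleen arrays lay close to the median of all probe sets, and every bone marrow array stood about an order of magnitude above them (3.60 ± 0.11 SE, 12.1-fold, 4 arrays per tissue, adjusted p = 4.3e-10 in limma). The macrophage markers given above rose in the same arrays. Lilr4b, once called gp49A, the neighbour and close copy of Lilrb4a without its ITIMs, stood at 3175, 2853, 3568 and 2415 in bone marrow and 344, 298, 495 and 520 in spleen (2.88 ± 0.17, 7.38-fold, adjusted p = 1.1e-07). Probes of such close copies may pick up each other's transcripts, which was not tested for Lilr4b and Lilrb4a. Cd33, a sialic acid receptor that in the mouse lacks the canonical ITIM of its human counterpart, stood at 2218, 1992, 2242 and 1651 in bone marrow and 701, 603, 717 and 697 in spleen. Its bone marrow arrays were all far above the spleen arrays (1.57 ± 0.11, 2.97-fold, adjusted p = 2.8e-07). Cd300lg, or nepmucin, known from the endothelium of venules, stood at 906, 859, 728 and 900 in bone marrow and 306, 303, 277 and 373 in spleen (1.43 ± 0.11, 2.70-fold, adjusted p = 6.5e-07).

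The 8 Cd300 members were all called, 6 higher and 2 lower, while 18.5% of all genes were called. Whether probes of a Cd300 gene pick up transcripts of its relatives was not tested. Apart from Cd300lg, they stand in 1 cluster, in the order Cd300a, Cd300lb, Cd300c, Cd300ld, Cd300c2, Cd300e and Cd300lf in the RefSeq annotation of assembly GRCm38.p6. Along this order the log2 fold changes were 0.38, 1.57, -0.54, 1.14, 0.60, 1.66 and -1.74. Direct neighbours thus moved in opposite directions on both sides of Cd300c. The 2 lower genes were the activating Cd300c and the inhibitory Cd300lf at the end of the cluster, so neither position in the cluster nor class separated the directions.

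**Figure D3:**
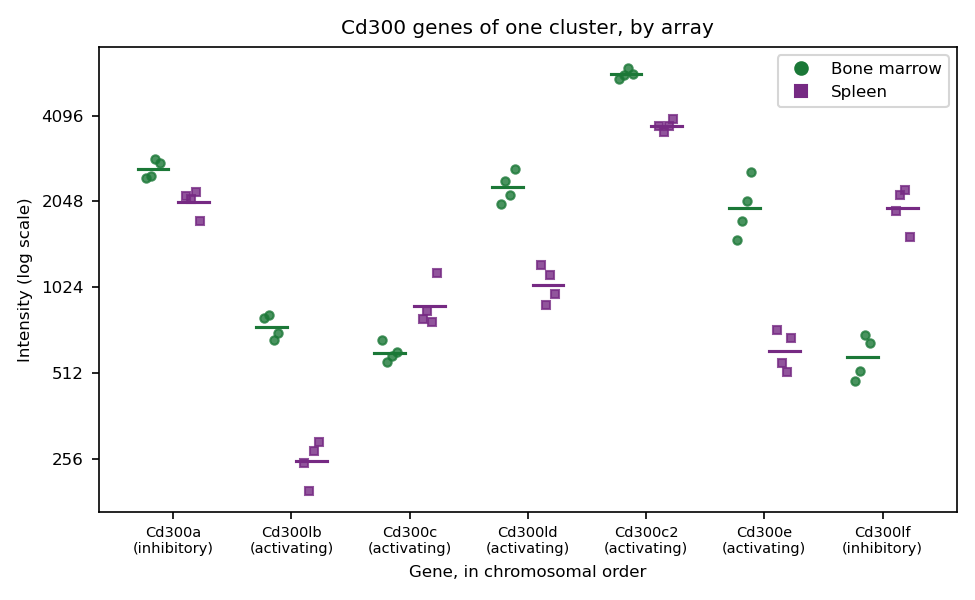
Intensity (log scale) of the 7 members of the Cd300 cluster in chromosomal order, with a point per array (circles bone marrow, squares spleen, 4 each) and a line at the geometric mean. The 2 groups are separate for every gene, with bone marrow higher except for Cd300c and Cd300lf, whose spleen means are 877 and 1942 against 604 and 581.

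Promoters of Cd300 cluster members that differed in direction are shown to set their sequences beside these values. The Cd300 genes printed together share a motif and are not direct neighbours. Promoter windows of 300 bases, from 250 before to 50 after the annotated gene start, were taken from RefSeq (GRCm38.p6) and were matched for 21 of the 29 members. They were searched on both strands for GAGGAAGT, a binding site type of the myeloid factor PU.1, and for 2 copies of GAAA separated by 2 bases, a binding site type of interferon regulatory factors. GAGGAAGT occurred in 3.20% of all 32851 windows and in 4 of 21 members (Cd300ld, Cd300lf, Pirb and Lilra6), and the GAAA repeat in 3.44% of all and in 2 of 21 (Cd300c and Cd300c2). TGACTCA, the AP-1 site, occurred in 5.20% of all windows and TTGCGCAA, a C/EBP site, in 0.183%, and neither was found in a member window. A match describes letters only and shows no binding. Cd300ld (chr11:114989837-114990136, minus strand), which was 2.20-fold higher, and Cd300lf (chr11:115133943-115134242, minus strand), which was 3.34-fold lower, share the PU.1-type letters, in capitals:
Cd300ld: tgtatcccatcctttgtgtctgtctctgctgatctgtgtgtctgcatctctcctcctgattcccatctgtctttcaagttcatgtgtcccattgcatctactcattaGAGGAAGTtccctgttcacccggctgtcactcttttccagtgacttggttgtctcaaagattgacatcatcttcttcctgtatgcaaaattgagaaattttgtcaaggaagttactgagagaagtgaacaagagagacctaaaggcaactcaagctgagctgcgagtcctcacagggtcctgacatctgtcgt
Cd300lf: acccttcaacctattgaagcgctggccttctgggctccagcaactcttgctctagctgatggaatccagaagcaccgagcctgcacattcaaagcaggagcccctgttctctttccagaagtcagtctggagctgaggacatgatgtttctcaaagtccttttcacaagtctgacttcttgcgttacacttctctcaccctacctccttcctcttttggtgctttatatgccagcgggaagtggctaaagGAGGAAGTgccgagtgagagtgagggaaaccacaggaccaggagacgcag
The match begins 143 bases before the annotated start in Cd300ld and at the start itself in Cd300lf. Their best local alignment held 104 identical bases in 174 columns (59.8%).

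Cd300c (chr11:114960458-114960757, minus strand), which was 1.45-fold lower, and Cd300c2 (chr11:115001831-115002130, minus strand), which was 1.52-fold higher, share the interferon regulatory factor letters, in capitals:
Cd300c: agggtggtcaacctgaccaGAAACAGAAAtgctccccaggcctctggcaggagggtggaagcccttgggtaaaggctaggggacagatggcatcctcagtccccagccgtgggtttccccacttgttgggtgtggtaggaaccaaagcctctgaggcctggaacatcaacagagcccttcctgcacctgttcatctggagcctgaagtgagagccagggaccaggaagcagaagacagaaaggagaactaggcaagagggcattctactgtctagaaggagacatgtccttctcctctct
Cd300c2: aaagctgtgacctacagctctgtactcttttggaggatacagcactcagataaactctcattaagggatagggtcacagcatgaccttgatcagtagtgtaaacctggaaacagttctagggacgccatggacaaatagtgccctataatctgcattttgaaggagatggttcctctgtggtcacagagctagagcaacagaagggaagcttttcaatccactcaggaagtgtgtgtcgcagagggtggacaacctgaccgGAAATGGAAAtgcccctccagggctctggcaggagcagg
The match lies 231 bases before the annotated start in Cd300c and 11 bases after it in Cd300c2, within a stretch of 54 aligned columns of which 47 were identical (87.0%). Cd300c and Cd300c2 had opposite differences, and whether this stretch plays a part in either was not tested.

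Pirb (chr7:3720333-3720632, minus strand) and Lilra6 (chr7:3915452-3915751, minus strand), an inhibitory and an activating gene of the Lilr group, are printed because their promoters are close copies, with the PU.1-type letters in capitals:
Pirb: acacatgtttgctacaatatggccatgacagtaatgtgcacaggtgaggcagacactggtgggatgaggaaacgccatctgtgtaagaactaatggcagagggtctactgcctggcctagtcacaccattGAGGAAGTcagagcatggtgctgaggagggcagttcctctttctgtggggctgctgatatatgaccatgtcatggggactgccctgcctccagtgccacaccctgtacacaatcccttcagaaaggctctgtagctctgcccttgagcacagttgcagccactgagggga
Lilra6: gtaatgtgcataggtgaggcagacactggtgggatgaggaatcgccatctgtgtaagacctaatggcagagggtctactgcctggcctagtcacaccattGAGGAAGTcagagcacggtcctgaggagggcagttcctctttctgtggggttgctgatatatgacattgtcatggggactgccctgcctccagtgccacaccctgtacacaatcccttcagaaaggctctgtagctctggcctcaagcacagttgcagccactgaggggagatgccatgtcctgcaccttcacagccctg
They shared 259 identical bases in 270 aligned columns (95.9%). Neither gene passed the threshold, and whether array probes separate copies this alike was not tested.

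Pairs of family members were then compared within each array, which cancels differences between arrays in overall scale. The log2 intensity of the second gene of a pair was subtracted from that of the first, which has an ITIM, and the shift is the bone marrow mean of this difference minus the spleen mean. The second gene was an activating member in 4 pairs, while Lilr4b in the fifth belongs to neither class. The 5 pairs are a few of those that these families could form and were chosen with earlier results known, so their directions do not speak for the families. A sixth pair planned for Sirpa could not be formed, because its partner had no probe set with a single symbol.

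Cd300lf minus Cd300ld had a shift of -2.88, a 7.36-fold change of their ratio (SD 0.25 in bone marrow and 0.31 in spleen), and Siglece minus Siglech a shift of 1.12. In both of these pairs the 2 genes had already been called in opposite directions with separate groups, which fixes the separation of their difference, and so no p is given for them. The other pairs were compared by a two-sided exact permutation test over the 8 arrays, whose smallest p is 0.029, with adjustment over all 5 pairs. Both pairs without a p entered this adjustment at the smallest p. This lowered the adjusted p of Cd300a with Cd300lb and of Lilrb4a with Lilr4b, whose unadjusted exact permutation p was 0.029. Cd300a, which itself rose, had a shift of -1.19 against Cd300lb, since Cd300lb rose more (exact permutation adjusted p = 0.036). Lilrb4a had a shift of -0.64 against its ITIM-free copy Lilr4b (exact permutation adjusted p = 0.036), with SDs of 0.11 and 0.09 between arrays, and cross-detection of these copies by the probes was not tested. For Pirb against Lilra6 the shift was 0.68 and the groups overlapped (exact permutation p = 0.11, adjusted 0.11, SD 0.31 and 0.67). That shift was 0.37 without spleen replicate 4 and 0.89 without spleen replicate 3, where it passed the threshold (exact permutation adjusted p = 0.029). This test exchanges arrays freely and leaves out that they come in mice. When arrays were exchanged only within a mouse, a test added after the data were seen, 16 arrangements were possible, the smallest exact p was 0.125, and no pair could pass.

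**Figure D4:**
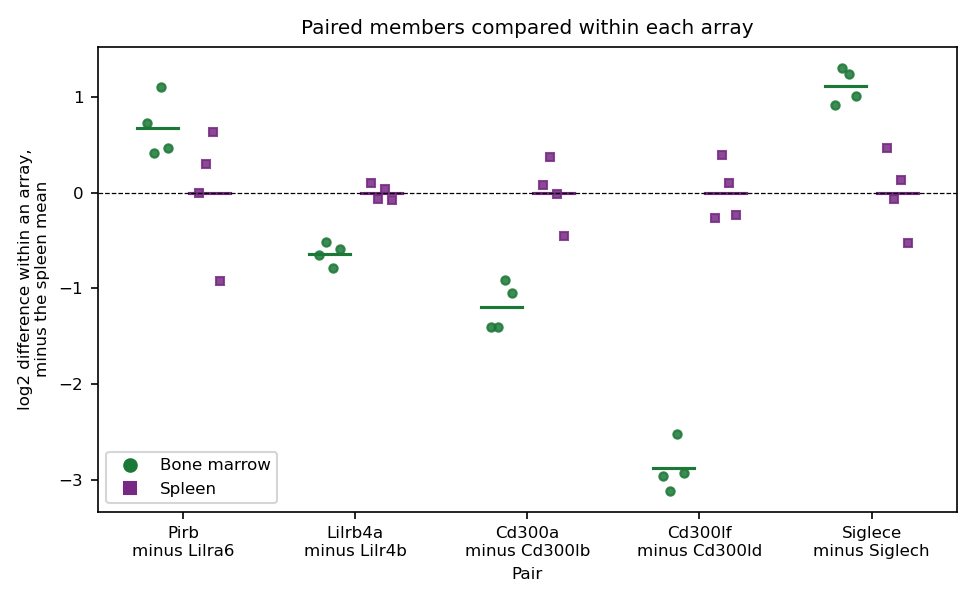
Within-array log2 difference between the first and the second gene of each of 5 pairs, minus the spleen mean of that pair, with a point per array (circles bone marrow, squares spleen) and a line at each mean. The groups are separate in 4 pairs and overlap for Pirb and Lilra6, and the largest shift, -2.88, is that of Cd300lf against Cd300ld.

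Signalling genes behind the receptors changed in part, with the kinase Syk higher in bone marrow. Of 22 measured activating adaptors and kinases, 8 were higher and 3 lower in bone marrow, with a median log2 fold change of 0.10. This is 50% called, against 18.5% of all genes and 28.0% of genes at least as bright as the dimmest member. Syk, the kinase recruited by the adaptors, was 1.51-fold higher, at 2273 against 1506 (0.59 ± 0.10 SE, 4 arrays per tissue, adjusted p = 8.4e-04 in limma). Blnk, a scaffold of B cell and macrophage signalling, showed the largest rise (2.09 ± 0.14, adjusted p = 3.1e-07), ahead of Lat2 (0.66 ± 0.07), a membrane scaffold. Malt1, a protease of the CARD9 and BCL10 complex, was 2.19-fold lower (-1.13 ± 0.12, adjusted p = 2.0e-05), and the T cell scaffold Lat was lower, with a log2 fold change of -0.48 (adjusted p = 0.010). The adaptor genes Lcp2 (0.15) and Grb2 (0.07) were not called. Of 13 inhibitory phosphatases and adaptors, 7 were higher and 0 lower by limma's adjusted p, with a median of 0.34. At an unadjusted p below 0.05, also 0 were lower. In this list 53.8% were called, against the same shares of other genes. Dok3 and Dok2, adaptors that restrain kinase signalling, were 4.42-fold and 1.76-fold higher (adjusted p = 3.2e-08 and 0.0029). Of the phosphatases that ITIMs recruit, some were called and others were not. Ptpn6, encoding SHP-1, stood at 4372 and 4206 (0.06 ± 0.10, adjusted p = 0.84), and Inpp5d, encoding SHIP-1, at 3596 and 3417 (0.07 ± 0.12, adjusted p = 0.81), and neither was called. Ptpn11, encoding SHP-2, was higher, at 1331 against 1052 (0.34, adjusted p = 0.032 in limma), as was Inppl1, encoding SHIP-2, at 603 against 371 (0.70, adjusted p = 9.5e-05 in limma). Ptpn11 and Inppl1, like Lcp2, Grb2 and the dendritic cell markers named beside counts above, were chosen after their values were seen.

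Among ligands of these receptors and enzymes that make or remove sialic acid, 33.3% were called, against 18.5% of all genes. That share lay closer to the 28.0% called among genes at least as bright as the dimmest member. Of 30 measured, 9 were higher, 1 was lower and 20 were not called, with a median log2 fold change of 0.06. Fn1, the fibronectin gene, and Apoe, the apolipoprotein that Trem2 binds, were 7.75-fold and 5.42-fold higher in bone marrow (2.95 ± 0.28 and 2.44 ± 0.09 SE, 4 arrays per tissue, adjusted p = 6.9e-06 and 1.9e-09 in limma). St6gal1, which adds the sialic acid linkage that Cd22 and Siglecg bind, was the 1 lower member, at 463 against 725 (-0.65 ± 0.09, adjusted p = 2.0e-04). Cd47, the ligand of Sirpa, stood at 4374 and 4455 (-0.03 ± 0.09, adjusted p = 0.93). Inhibitory receptors outside the symbol rule were 8 higher and 4 lower of 14 (median 0.74). Pilra was 4.56-fold and Fcgr2b 4.04-fold higher, and Cd22 and Cd5 were lower, with log2 fold changes of -2.35 and -1.81. Activating receptors outside that rule were 13 higher and 0 lower of 16 by limma's adjusted p (median 1.21). At an unadjusted p below 0.05, also 0 were lower. The Fc receptors Fcgr1, at 9.69-fold, and Fcgr3, at 7.67-fold, led them. Of the inhibitory list 85.7% were called, and of the activating list 81.25%. Those shares are set against 18.5% of all genes and 28.0% of genes at least as bright as the dimmest member. No test of a list was made.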

How the data were processed

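The authors deposited linear intensities, 1 per probe set and array. The submitters' processing notes name Affymetrix Expression Console 1.4. The handling of background, scaling between arrays and probe summaries is not stated in any source used here. Of 35556 probe sets, 21789 had 1 gene symbol in the platform annotation of 2016, 1621 had several and 12146 were not in that table. The brightest probe set per gene was kept (19938 genes; each member had a single one). The log2 of these intensities was fitted in limma 3.58.1 (R 4.3.3, lmFit and eBayes) as bone marrow minus spleen, without a filter on dim genes, with Benjamini-Hochberg adjustment over all genes and a threshold of 0.05. The fit was tested on simulated data. Levels are intensities, or geometric means of 4 arrays. The number of arrays limits the precision, and without background values the fold change of a dim gene may be understated. Brightness across genes describes probe signal, not transcript amount.

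Per the labels, equal replicate numbers mark a shared mouse. Across genes, the residuals of a mouse's marrow and spleen arrays about their tissue means correlated at 0.096, -0.088, -0.178 and -0.054. Blocking on the mouse (replicate block) was an alternative fit.

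Members, classes, pairs and lists were chosen with earlier results of these data known. Full values were given to the 14 called members with the largest change and to Tyrobp, Hcst, Sirpa, Cd33, Siglech and Lair1, and for other lists to up to 2 called genes in each direction plus Fcer1g, Syk, Ptpn6, Inpp5d and Cd47. Full values of Pirb and Trem1 were added after they were seen, as were the marker genes named and Ptpn11, Inppl1, Lcp2 and Grb2. The remaining members are given by range or mean. Alternatives were quantile normalization, median centring, log2(intensity + 32), leaving out the dimmest 40% of genes, averaging probe sets, an intensity trend, array weights, the replicate block and leaving out each array. Protein sequences were not used here.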

Additional observations from a re-analysis of the deposited data

Results flagged for a closer look

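Of 58 groups of 4 arrays (29 members in 2 tissues), 3 held an array far from the others, where chance gives about 1 in 20. Sirpa was low in spleen replicate 4, at 4158 against 5875 to 6039 in the other spleen arrays. Lilrb4a was low in bone marrow replicate 4, at 2637 against 3274 to 3409. Cd33 was low in spleen replicate 2, at 603 against 697 to 717. The calls of these 3 genes, Lilrb4a and Cd33 higher and Sirpa not called, were the same without each of those arrays, but the Sirpa log2 fold change went from 0.17 to 0.045 without spleen replicate 4.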

How the results depend on the processing

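Of the 29 members, 21 were called, and between 19 and 21 of these kept their call and direction under each alternative. The replicate block for mouse kept 20 of 21, losing Tyrobp (adjusted p = 0.094, log2 fold change 0.24) and adding Pirb (0.043, 0.47), and changed no other call among the members. Leaving out each array in turn gave 16 to 18 members higher and 3 to 5 lower, and 1 to 2 activating members lower, the lower number when replicate 1, 2 or 3 of bone marrow, or 3 or 4 of spleen, was dropped. In the list of ligands and sialic acid enzymes, leaving out an array gave 1 to 2 lower genes. That list had 2 lower genes with quantile normalization or array weights. With the dimmest genes left out, 8 of the other activating receptors were higher, since fewer were tested. With Lilr4b and Cd33 counted as activating, a choice made after the data were seen, the activating median was 0.92. The opposite choice, counting either as inhibitory, was not run. Values near 0 that were not called changed sign. Cd47 stood at 0.061 with probe sets averaged and at 0.0021 with array weights. Over fits that each leave out an array, Cd47 ranged from -0.075 to 0.043, Siglec15 from -0.046 to 0.091, Siglecf from -0.029 to 0.179, Hcst from -0.010 to 0.195, Ptpn6 from -0.019 to 0.118 and Inpp5d from -0.050 to 0.123. The cause was not tested. The replicate block for pairs exchanged arrays only within a mouse and was added after the data were seen. Its smallest possible exact p was 0.125, so no pair could pass. The pair shifts stayed at -0.64 (Lilrb4a with Lilr4b), -1.19 (Cd300a with Cd300lb), -2.88 (Cd300lf with Cd300ld) and 1.12 (Siglece with Siglech). Leaving out each array gave shifts of 0.37 to 0.89 for Pirb with Lilra6, which passed without spleen replicate 3. For Siglece with Siglech the shifts were 0.94 to 1.27, and the permutation outcome changed without replicate 2 or 3 of bone marrow. That outcome is not read, since the opposite calls of Siglece and Siglech fix their separation. The calls of Lilrb4a with Lilr4b and of Cd300a with Cd300lb were unchanged in those fits. The dimmest members, Trem1, Siglecf and Siglech, are those whose background is least known.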
